A study of Mus musculus with 9 samples.

Results

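Pancreatic transcripts of mice with pancreatitis given Qingyi Decoction (QYD) were compared with those of mice with pancreatitis given no decoction (Model), across all genes of the deposited table. The comparison used the 6 libraries of these groups, 3 per group, of 9 in the series, and 12828 of the 17132 listed genes had enough counts to be tested. All mice were C57BL/6 and received 7 hourly intraperitoneal injections, and whole pancreas was taken 24 h after the first. Model mice, numbered 56, 57 and 59, received caerulein at 50 mg/kg, as the labels give the dose, with lipopolysaccharide (LPS) at the last injection and saline in place of the decoction. QYD mice, numbered 65, 66 and 68, received the same caerulein and LPS, with the decoction at 0 and 8 h. Control mice, numbered 43, 44 and 45, received saline alone and are used here for reference levels and for the shared estimate of spread. The decoction group is named QYD in the titles and QTD in the treatment label. The labels name separate samples but not litters, cages or days, so p-values measure the spread between these mice.

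Qingyi Decoction is a herbal preparation of several plants used in China for acute pancreatitis. Caerulein is an analogue of cholecystokinin that drives acinar cells to secrete beyond their capacity, so that digestive enzymes are activated inside the cell. LPS adds a bacterial signal through Toll-like receptor 4, which starts cytokine production and a type I interferon response. In the injured pancreas, acinar cells lower their secretory programme and take on features of duct cells, and neutrophils enter the tissue.

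The 6 libraries held 19112923 to 19745803 estimated counts. Digestive enzyme genes, which define exocrine pancreas, took 47.3%, 45.8% and 51.7% of counts in Model 56, 57 and 59. The shares in QYD 65, 66 and 68 were 45.9%, 50.6% and 52.7%. The group means were 48.3% ± 3.04 and 49.7% ± 3.49 (SD, n = 3), and the groups overlapped (exact permutation test, two-sided, p = 0.7, where 3 against 3 cannot give less than 0.1). No replicate pair agreed within sampling noise, with a chi-square per gene of 21.6 to 52.4. The libraries of a group also differed among themselves. The median absolute log2 difference between libraries was 0.165 to 0.22 within QYD or Model and 0.165 to 0.262 between them.

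No gene differed between QYD and Model after adjustment. Of the 12828 tested genes, 0.0% passed an adjusted p of 0.05, and the smallest adjusted p was 0.826 (edgeR's quasi-likelihood test, Benjamini-Hochberg). DESeq2 called 0 genes, with a smallest adjusted p of 0.0576 for Xaf1 and Klk1b4, and limma voom called 1, Hist2h2aa2. In the edgeR fit an unadjusted p under 0.05 was found for 750 genes, which is 5.85% of those tested. Of these, 442 were higher in QYD (3.45%) and 308 were lower (2.4%). With scaling to library totals only, the split was 62 higher against 443 lower, and the median of all genes moved from 0.006 to -0.112 on the log2 scale. The FPKM values leaned the same way, with 113 higher and 593 lower on log2(FPKM + 1). Directions below are on the scale of trimmed mean normalisation (TMM), which sets each gene against the typical gene. By library size the medians of these lists changed sign: digestive enzymes (-0.04), acute phase and Reg genes (-0.08), cytokines (-0.12), cholesterol synthesis (-0.13), heat shock proteins (-0.07) and respiratory chain (-0.01).

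The precision of the comparison was measured by the 95% interval of each log2 difference. Its median half-width was 0.41. Below, levels are in CPM, counts scaled to a common library total on the TMM scale, given for Model 56, 57 and 59 and then for QYD 65, 66 and 68. Log2 differences are QYD minus Model ± SE from the edgeR fit. For 10632 genes (82.9%) the interval lay inside a 2-fold change either way, and for 6358 (49.6%) inside a 1.5-fold change. Against Control, the same fit called 2736 genes higher (21.3%) and 2728 lower (21.3%) in Model. In QYD it called 2624 higher (20.5%) and 2598 lower (20.3%) against Control (adjusted p under 0.05, edgeR with Benjamini-Hochberg). The Control libraries are shared by both of those comparisons. TMM factors were 0.359 to 0.397 in Control and 1.36 to 1.82 in Model and QYD, which raises Control levels against library totals. Levels and differences against Control therefore depend on that scaling.

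**Figure D1:**
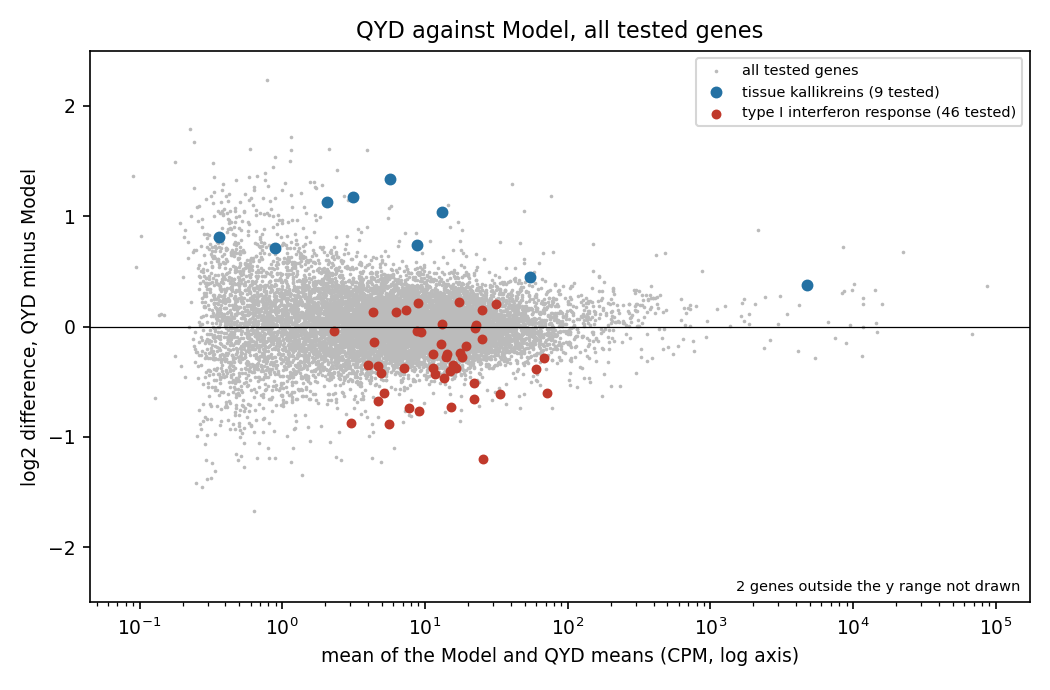
Mean level of each tested gene (CPM, log axis) against its log2 difference between QYD and Model; each grey point is 1 of the 12828 tested genes, and colour marks the tissue kallikreins and the type I interferon response list. All 9 kallikreins lie above 0, 37 of the 46 interferon genes lie below it, and 2 genes, Hist2h2aa2 and Lypd8, fall outside the plotted range.

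The tissue kallikreins had positive log2 differences in every tested member. These are serine proteases of exocrine glands, and Klk1 releases vasoactive kinins from kininogen. The mouse Klk1b genes are close relatives of Klk1 and lie beside it in 1 cluster on chromosome 7. All 14 listed members were in the table, 9 had enough counts to be tested, and 7 of the 9 had an unadjusted p under 0.05, all higher in QYD, against 3.45% of all genes. In 6 members every QYD mouse was above every Model mouse, against 8.56% of all genes. The median log2 difference of the 9 was 0.81, against 0.006 for all genes, of which 51.1% were positive, and none passed the adjusted test (edgeR, Benjamini-Hochberg, 0.826 for each of the 7).

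The starts of the 4 members with the largest fold differences among those with an unadjusted p under 0.05 are shown to let their likeness be seen. They are the 150 bases before the annotated start (RefSeq, GRCm38.p6, + strand), with the letters TTTAAA in capitals. They lie at chr7:44207283-44207432 for Klk1b4, chr7:43995727-43995876 for Klk1b11, chr7:44188086-44188235 for Klk1b24 and chr7:44012528-44012677 for Klk1b26.
Klk1b4: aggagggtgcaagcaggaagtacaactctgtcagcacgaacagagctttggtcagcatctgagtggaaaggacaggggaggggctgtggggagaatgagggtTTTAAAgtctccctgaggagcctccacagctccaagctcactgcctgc
Klk1b11: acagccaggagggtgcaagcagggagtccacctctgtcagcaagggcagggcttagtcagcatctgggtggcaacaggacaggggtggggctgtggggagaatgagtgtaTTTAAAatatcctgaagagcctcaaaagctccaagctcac
Klk1b24: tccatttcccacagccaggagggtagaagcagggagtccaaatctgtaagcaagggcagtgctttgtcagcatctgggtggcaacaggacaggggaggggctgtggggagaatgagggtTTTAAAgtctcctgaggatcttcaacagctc
Klk1b26: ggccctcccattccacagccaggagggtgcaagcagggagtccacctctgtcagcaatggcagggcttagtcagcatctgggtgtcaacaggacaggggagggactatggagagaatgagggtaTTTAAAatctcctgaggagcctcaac
Pairs of these windows were identical at 64.7% to 81.5% of aligned positions, which is not a measure of shared reads. TTTAAA, the same on both strands, was chosen after the sequences were read. It was present in the window of 8 of the 9 tested kallikreins and in 5.4% of 10228 tested genes with a RefSeq window. It began 48, 40, 31 and 26 bases before the start in the order printed.

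Klk1b4 (chr7:44207433-44211754) stood at 6.55, 8.72 and 10.8 CPM in Model 56, 57 and 59 and at 19.6, 13.1 and 20.9 CPM in QYD 65, 66 and 68. Every QYD mouse lay above every Model mouse. Its log2 difference was 1.04 ± 0.21 (SE, 95% interval 0.59 to 1.49), the smallest unadjusted p of the family. Klk1b11 (chr7:43995877-43999875) had 1.77, 2.65 and 5.35 CPM in Model and 9.47, 5.76 and 9.24 CPM in QYD, in the same order of mice. Here Model 59 came close to QYD 66, without overlap, and the log2 difference was 1.34 ± 0.33. Klk1b24 stood at 1.2, 1.73 and 2.83 CPM in Model and 5.06, 2.85 and 4.99 CPM in QYD (1.18 ± 0.35). For Klk1b26 the levels were 0.887, 1.04 and 1.93 CPM and 3.1, 1.98 and 3.31 CPM (1.13 ± 0.31). In all 4 genes Model 59 was the highest Model mouse and QYD 66 the lowest QYD mouse.

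Klk1 itself (chr7:44225360-44229622), the member with the most counts, had 3744, 4196 and 4414 CPM in Model and 4642, 5036 and 6353 CPM in QYD. The groups did not overlap, and the log2 difference was 0.38 ± 0.16, smaller than that of its relatives. Klk1b5 had 35.6, 52.6 and 50.5 CPM in Model and 65.2, 56.8 and 68 CPM in QYD (0.45 ± 0.16), again without overlap. Klk1b3 overlapped, with 4.35, 5.6 and 9.9 CPM against 12.7, 8.88 and 11.3 CPM (0.74 ± 0.25). The 2 remaining tested members, Klk1b8 and Klk1b27, had values of 0.71 ± 0.44 and 0.81 ± 0.54, with overlapping groups. The 5 members that were not tested, Klk1b1, Klk1b9, Klk1b16, Klk1b21 and Klk1b22, had at most 7 counts in any library.

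On the TMM scale, all 9 tested kallikreins were lower in Model than in Control (adjusted p under 0.05, edgeR with Benjamini-Hochberg). The log2 difference between Model and Control was -2.48 ± 0.21 for Klk1b4, -4.26 ± 0.35 for Klk1b11 and -2.08 ± 0.17 for Klk1. The Model libraries enter both comparisons. In Control the levels of Klk1b4 were 51.6, 43.3 and 50.0 CPM, so the QYD mice stood between the other groups on that scale. TMM factors were 0.359 to 0.397 in Control and 1.36 to 1.82 in Model and QYD. By library totals alone the QYD mice did not lie between the other groups for Klk1b4, so this placing depends on the scaling. Of the 50-base stretches of the transcripts of the 14 listed members, 66.1% to 89.9% occurred in no other gene, so part of the reads can come from a relative and each member's level is uncertain to that extent. Without Model 56, 4 of the 9 had an unadjusted p under 0.05, and by library size alone it was 5, with all 9 still positive. The lower values against Control are those of the TMM scale, and the part of that scaling in them was not tested. In whole tissue a lower share of acinar cells and less RNA per acinar cell cannot be told apart either.

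**Figure D2:**
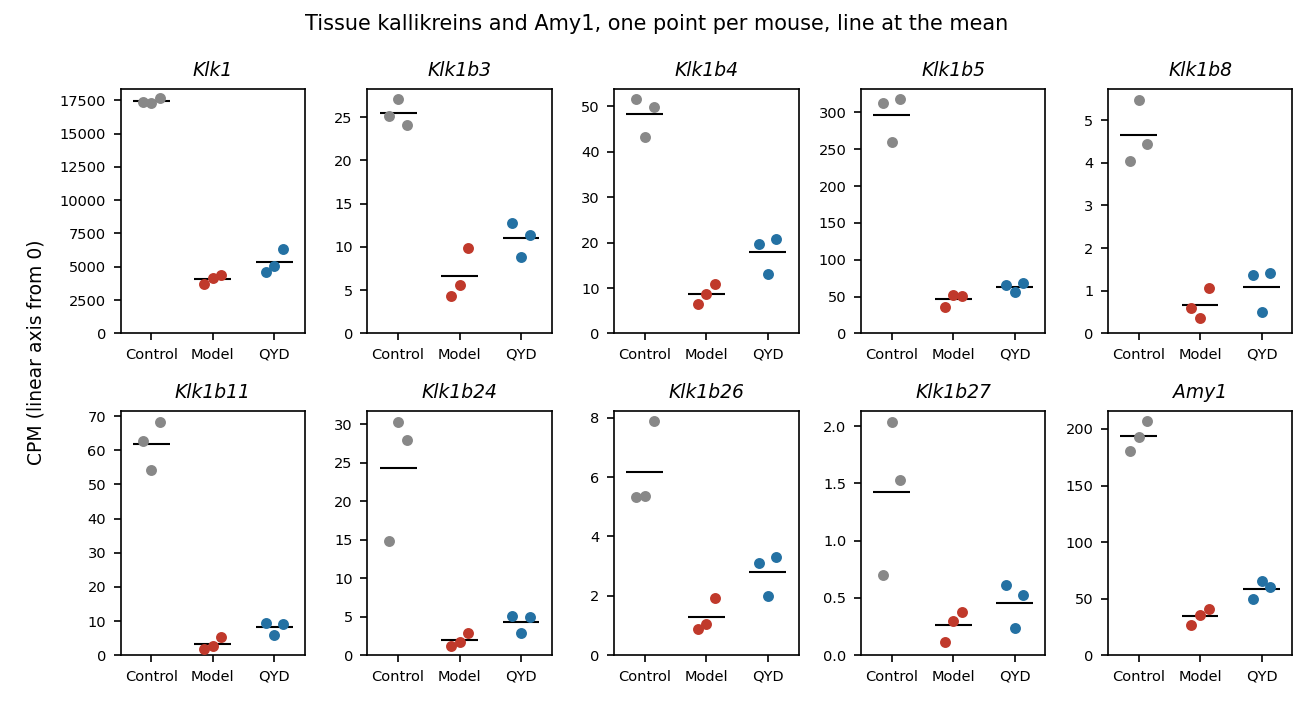
CPM of the 9 tested tissue kallikreins and of Amy1 in each mouse (linear axes from 0, each gene with its own scale, line at the group mean of 3 mice). The QYD points of Klk1b4 (13.1 to 20.9 CPM) lie above its Model points (6.55 to 10.8 CPM), and on the TMM scale all 9 kallikreins have their highest mean in Control.

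The digestive enzymes as a list did not follow the kallikreins. Of 33 tested members, 24 had positive values, 3 had an unadjusted p under 0.05, all higher, against 3.45% of all genes, and the median was 0.05. By library size alone 14 were positive. The list rested on single mice: without Model 59 it had 29 positive, 6 with an unadjusted p under 0.05 and a median of 0.31, and without QYD 65 27 positive, 6 and 0.16. Without QYD 68 it had 16 positive and a median of -0.01, and without Model 56 17 positive. Chymotrypsinogen Ctrb1, elastase Cela1, carboxypeptidase Cpa1 and pancreatic lipase Pnlip had log2 differences of -0.07 ± 0.20, -0.05 ± 0.18, -0.10 ± 0.20 and -0.15 ± 0.23. For Ctrb1 the 95% interval ran from -0.50 to 0.36, and for Cela1 from -0.44 to 0.34, both inside a 1.5-fold change. The 3 members with an unadjusted p under 0.05 were Klk1, the amylase Amy1 and the trypsinogen Try5. Amy1 had 26.8, 35.8 and 41.3 CPM in Model and 49.2, 65.6 and 60.5 CPM in QYD, without overlap (0.76 ± 0.17). Amy1 is the amylase gene known for salivary gland and liver, and 66.7% of its 50-base stretches were found in no other gene. The pancreatic amylase Amy2b overlapped, at 37.9, 41.6 and 60.8 CPM against 39, 68.2 and 56.7 CPM (0.22 ± 0.25). Try5 was highest in QYD 68, with 16849.8, 15166 and 19916 CPM in Model and 18525, 26064 and 38218 CPM in QYD. The trypsinogens and amylases share reads with near-identical copies, so how counts divide among them is uncertain.

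Genes of acinar identity and secretion showed 21 of 29 members with positive values and a median of 0.11. Only the p24 cargo receptors Tmed11 and Tmed6 had an unadjusted p under 0.05, and both groups overlapped for each. The median was 0.04 without Model 56 or Model 57, and 7 members had an unadjusted p under 0.05 without Model 59. The transcription factor Bhlha15 (Mist1), which organises the secretory cell, varied within groups, from 4.92 to 28.1 CPM in Model and from 9.94 to 35.8 CPM in QYD. Ptf1a and Rbpjl, which drive enzyme genes, had log2 differences of 0.23 ± 0.25 and 0.10 ± 0.28. The cholecystokinin receptor Cckar stood at 60.5, 143 and 214 CPM in Model and 212, 231 and 129 CPM in QYD, overlapping across that range.

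Genes of the type I interferon response had mostly negative values. These genes are switched on when cells sense interferon, through an interferon-stimulated response element in their promoters. Of 46 tested members, 37 had negative values and 12 had an unadjusted p under 0.05, all lower in QYD, against 2.4% of all genes. In 12 members every QYD mouse was below every Model mouse, against 8.18% of all genes, and the median was -0.31. No member passed the adjusted test. The fit of the 6 compared libraries alone gave 16 lower and 0 higher, where 10.0% of all genes had an unadjusted p under 0.05 in either direction. Without QYD 68 the number was 4 lower and 1 higher with a median of -0.20, and without Model 57 it was 7 lower. By library size alone it was 17 lower, a setting in which 443 of all 12828 genes were lower and 62 higher.

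Promoters are shown of the 3 genes with the smallest unadjusted p among list members that hold the core of that element. The core is GAAA followed by any 2 bases and a second GAAA, searched on both strands with overlapping matches allowed. The windows are the 150 bases before the annotated start (RefSeq, GRCm38.p6, matches in capitals, each printed along its gene's own strand). They are at chr4:156200819-156200968, chr12:26456453-26456602 and chr5:120777660-120777809, all on the - strand. The capitals of Rsad2 hold the match on the opposite strand.
Isg15: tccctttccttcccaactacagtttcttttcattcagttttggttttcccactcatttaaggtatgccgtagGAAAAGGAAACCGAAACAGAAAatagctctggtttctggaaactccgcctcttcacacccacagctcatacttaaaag
Rsad2: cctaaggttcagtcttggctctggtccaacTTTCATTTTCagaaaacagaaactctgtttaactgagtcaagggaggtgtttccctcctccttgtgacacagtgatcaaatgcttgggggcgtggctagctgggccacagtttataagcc
Oas3: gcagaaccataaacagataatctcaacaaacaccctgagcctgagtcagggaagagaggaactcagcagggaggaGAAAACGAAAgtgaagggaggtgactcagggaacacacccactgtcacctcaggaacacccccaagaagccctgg
Isg15 held 3 overlapping matches beginning 78, 72 and 66 bases before its start. Of the 35 tested members with a window in the table, 15 held at least 1 match (42.9%), against 1.8% of 10228 tested genes. Of the 15, only Isg15, Rsad2 and Oas3 had an unadjusted p under 0.05. The others with lower values were Gbp3, Oas1g, Oas1a, Ifit3, Ifit1, Bst2, Gbp2 and Gbp7. Trim30a, Ifi203, Igtp and Irgm1 had positive log2 differences (0.15, 0.13, 0.03 and 0.02).

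Xaf1, an interferon-induced partner of the inhibitor of apoptosis XIAP, lies at chr11:72301461-72313733. It had 11.7, 11.5 and 10.9 CPM in Model and 5.96, 7.1 and 7.04 CPM in QYD. The spread within each group was small and the groups stood apart, with a log2 difference of -0.76 ± 0.16 (95% interval -1.11 to -0.41). Isg15 (chr4:156199424-156200818), a ubiquitin-like protein attached to other proteins, stood at 8.67, 10.4 and 9.83 CPM and 5.99, 6.83 and 4.51 CPM (-0.73 ± 0.24). Usp18, the protease that removes it, had 22.2, 16.5 and 18 CPM in Model and 7.31, 14.5 and 12.6 CPM in QYD (-0.73 ± 0.24). Neither gene overlapped between groups.

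Rsad2 (chr12:26442743-26456452), the antiviral enzyme viperin, was 45, 34.2 and 27.6 CPM in Model and 13.8, 17.2 and 15.5 CPM in QYD, again without overlap. Its log2 difference was -1.20 ± 0.47 with all 9 libraries and -1.21 ± 0.18 with the 6 compared ones, where the spread of Control does not enter. Control mice ranged from 11.1 to 61.1 CPM for this gene. Cmpk2, a mitochondrial nucleotide kinase whose gene neighbours Rsad2, stood at 8.96, 6.73 and 6.17 CPM and 4.76, 4.05 and 3.02 CPM (-0.88 ± 0.30). Oasl1, a relative of the oligoadenylate synthetases, had 4.98, 6.37 and 6.11 CPM in Model and 4.03, 4.09 and 2.76 CPM in QYD (-0.68 ± 0.19). Both separated the groups.

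Stat2 stood at 16, 18.7 and 16.2 CPM against 14.3, 14 and 10.2 CPM (-0.40 ± 0.15), without overlap. The regulator Irf7 had 63.9, 100.4 and 96.3 CPM in Model and 54.1, 73.7 and 43.4 CPM in QYD (-0.61 ± 0.29), overlapping through Model 56 and QYD 66. The remaining members with an unadjusted p under 0.05 were Parp14, Ifit3b, Isg20, Oas3 and Rtp4, with log2 differences of -0.51, -0.88, -0.47, -0.60 and -0.38. The chemokine Cxcl10, which interferon also induces, had 0.13 ± 0.64. Summed monocyte and macrophage markers were 273 to 484 CPM in Model and 389 to 418 CPM in QYD, and their part in these values was not tested.

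**Figure D3:**
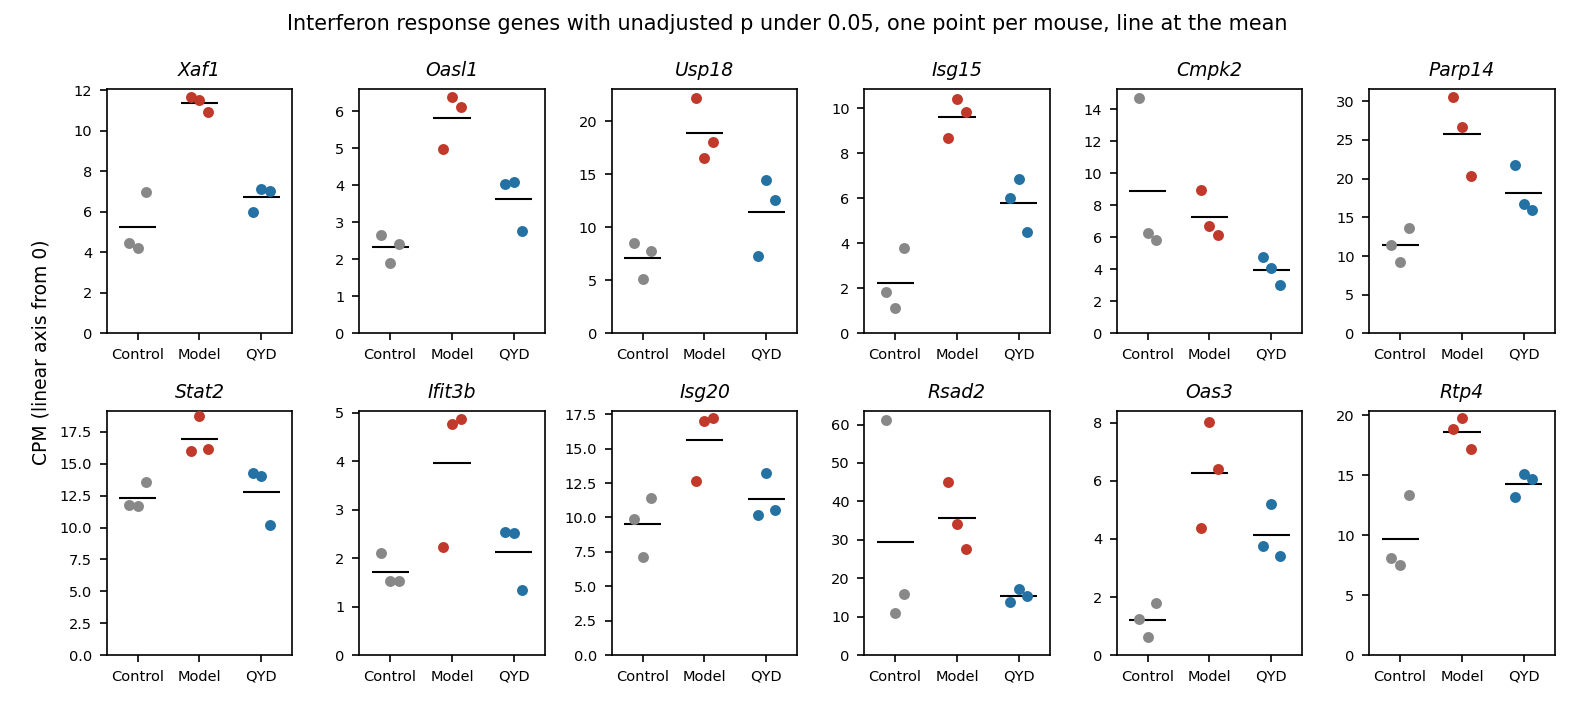
CPM in each mouse of the 12 interferon response genes with an unadjusted p under 0.05 (linear axes from 0, each gene with its own scale, line at the group mean of 3 mice). For Xaf1 the QYD mice lie at 5.96 to 7.1 CPM and the Model mice at 10.9 to 11.7 CPM. For Rsad2 and Cmpk2 Control 43 is the highest mouse of all on the TMM scale. The TMM factor was 0.359 for Control 43 and 1.82 for Model 56, and by library totals Control 43 lies below Model 56 for Rsad2. The order by library totals is not shown for Cmpk2.

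Within the unfolded protein response list, 20 of 33 members had negative values, 3 had an unadjusted p under 0.05, all lower, against 2.4% of all genes, and the median was -0.06. Without Model 59, 15 were negative and the median was 0.02. The 3 were Sesn2, the stress phosphatase subunit Ppp1r15a (-0.46 ± 0.13) and Ddit3 (CHOP, -0.52 ± 0.19). Sesn2, a restraint on the growth kinase complex mTORC1, had 10.2, 7.89 and 8.59 CPM in Model and 5.82, 5.66 and 6.67 CPM in QYD (-0.56 ± 0.14), without overlap. Atf4, the transcription factor of the arm that slows translation, had 79.1, 62.4 and 65.9 CPM in Model and 55.5, 54.3 and 66.5 CPM in QYD (-0.24 ± 0.14), and the groups overlapped. The chaperone Hspa5 (BiP) had 0.09 ± 0.14, with an interval of -0.21 to 0.40.

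The glucocorticoid and fasting list had 20 of 28 members with negative values, 4 with an unadjusted p under 0.05, all lower, against 2.4% of all genes, and a median of -0.17. Without Model 57, Model 59 or QYD 65, taken out singly, 2 were lower, with 2, 1 and 1 higher. Without QYD 68 6 were lower and the median was -0.31. Ddit4 (REDD1), which restrains mTORC1 under stress or glucocorticoid, lies at chr10:59949675-59951770. It stood at 44.3, 43 and 50.5 CPM in Model and 26, 32.8 and 25.8 CPM in QYD, without overlap, a log2 difference of -0.70 ± 0.18. The others were Pdk4, which blocks pyruvate entry into the mitochondria (-0.39 ± 0.15), Lpin1 (-0.52 ± 0.23) and the clock gene Per1 (-0.33 ± 0.13). Fkbp5 and Tsc22d3, standard glucocorticoid targets, had 0.06 ± 0.50 and -0.03 ± 0.16. Sgk1 overlapped, with 33.2, 76.9 and 64.4 CPM in Model and 22.2, 49.7 and 32.9 CPM in QYD (-0.74 ± 0.34).

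The cytokine and chemokine list had no common direction: 18 of 34 members were positive, with a median of 0.03. An unadjusted p under 0.05 was found for 3, all lower, against 2.4% of all genes. The count was 1 lower without Model 56 or Model 59, taken out singly, and 1 lower and 1 higher without QYD 66. Without Model 57 it was 2 lower and 3 higher. The median was -0.16 without Model 59 and 0.18 without Model 57. Csf3, the growth factor of granulocytes, had 6.9, 7.83 and 10.3 CPM in Model and 4.15, 3.02 and 4.47 CPM in QYD. Every QYD mouse was below every Model mouse, with a log2 difference of -1.10 ± 0.32. Ptgs2, the inducible cyclooxygenase, stood at 3.61, 2.83 and 3.38 CPM against 0.439, 1.31 and 2.64 CPM (-1.19 ± 0.51), where QYD 65 was lowest. Cxcl14 was the third with an unadjusted p under 0.05 (-0.51 ± 0.23). Il1b had 8.36, 7.62 and 6.24 CPM and 9.91, 7.57 and 17.9 CPM (0.67 ± 0.33), its mean set by QYD 68. Tnf, Il6, Cxcl1, Cxcl2 and Ccl2 had log2 differences of 0.36 ± 0.30, 0.23 ± 0.59, 0.26 ± 0.37, -0.20 ± 0.33 and -0.05 ± 0.26, each with overlapping groups. Their 95% intervals were wide, from -1.07 to 1.53 for Il6 and from -0.63 to 0.53 for Ccl2.

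Upstream of the cytokines, 22 of 38 genes of Toll-like receptor and NF-kB signalling were negative, with a median of -0.07. The LPS receptor Tlr4 had 0.24 ± 0.22, and the feedback inhibitors Nfkbia and Tnfaip3 had -0.07 ± 0.14 and -0.03 ± 0.27. Only Tlr6 had an unadjusted p under 0.05, at 0.601, 0.715 and 0.724 CPM in Model and 1.29, 1.11 and 1.53 CPM in QYD (0.94 ± 0.30). In the inflammasome list 18 of 21 members were positive with a median of 0.27, and no member had an unadjusted p under 0.05. The median was 0.10 without QYD 66. Nlrp3, the sensor, was 0.31 ± 0.31, and Gsdmd, the pore protein of pyroptosis, was 0.07 ± 0.20.

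Acute phase and Reg genes had a median of 0.03, with 15 of 29 members positive and none with an unadjusted p under 0.05. Lipocalin 2 (Lcn2) had 2219, 3181 and 3499 CPM in Model and 2962, 3044 and 3060.4 CPM in QYD. Its log2 difference was 0.03 ± 0.83 with all 9 libraries and 0.02 ± 0.19 with the 6 compared ones. Control 45 had 744 CPM against 37.9 and 50.3 in Control 43 and 44, and this spread enters the first SE. Reg3b, a secreted lectin of the injured acinar cell, had 0.33 ± 0.35, and Saa3 had 0.13 ± 0.75.

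Neutrophil markers had positive values in 25 of 27 tested members, with a median of 0.32. Only the collagenase Mmp8 had an unadjusted p under 0.05, at 14.4, 13.5 and 10.9 CPM in Model and 15.3, 18.3 and 33.2 CPM in QYD (0.78 ± 0.35). The calprotectin gene S100a8 had 42.6, 33.4 and 28.7 CPM and 47.2, 36.4 and 67.8 CPM (0.53 ± 0.36), and its partner S100a9 had 63.8, 42.7 and 37.4 CPM and 59.3, 45.1 and 86.9 CPM (0.41 ± 0.39). QYD 68 was the highest mouse for all 3. Without QYD 68, the list's median stood 0.07 above that of all genes, against 0.32 with it. Summed over the list, which Lcn2 dominates, the markers were 2543 to 3743 CPM in Model and 3318 to 3545 CPM in QYD.

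Subunits of the mitochondrial respiratory chain had small positive values on the TMM scale. Of 79 tested nuclear-encoded subunits, 65 were positive and 13 had an unadjusted p under 0.05, all higher, against 3.45% of all genes, with a median of 0.11. By complex, 31 of 39 subunits of complex I, 4 of 4 of complex II, 6 of 8 of complex III, 11 of 11 of complex IV and 13 of 17 of ATP synthase were positive. Cox7b of complex IV had 18.2, 19.7 and 18.8 CPM in Model and 22.6, 28.4 and 29.7 CPM in QYD, without overlap (0.51 ± 0.14). In complex I, Ndufa5 had 5.92, 6.16 and 6.8 CPM and 7.72, 8.41 and 8.53 CPM (0.38 ± 0.12), and Ndufa4 24.7, 27.6 and 26.8 CPM and 29.6, 36.4 and 38.2 CPM (0.40 ± 0.13). The direction of the list depended on scaling: by library size alone 39 were positive and 40 negative, 1 had an unadjusted p under 0.05, and the median was -0.01. The count of 13 was 4 without Model 56, 8 without Model 57, 3 without QYD 66, 4 without QYD 68 and 23 without QYD 65.

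Of 80 tested cytosolic ribosomal proteins, 76 were positive on the TMM scale and 50 by library size, with medians of 0.18 and 0.04. The values rested on QYD 65 and QYD 68: without QYD 68, 51 were positive, the median was 0.05 and none had an unadjusted p under 0.05, and without QYD 65 it was 79 positive, 0.29 and 33, all higher. With all mice 3 had an unadjusted p under 0.05, near the share of all genes (3.45% higher). They were Rpl36, Rps3a1 and Rpl22, at 0.42 ± 0.17, 0.37 ± 0.15 and 0.37 ± 0.17. For each of these 3 QYD 68 was the highest mouse. Among antioxidant genes of the NRF2 list, 17 of 36 were positive. The peroxiredoxins Prdx1 (0.37 ± 0.13) and Prdx3 (0.28 ± 0.12) had higher values, and thioredoxin reductase Txnrd1 (-0.28 ± 0.12) a lower one, each without overlap. In this list 2 members were higher and 1 lower at an unadjusted p under 0.05, against 3.45% and 2.4% of all genes. Every QYD mouse was above every Model mouse in 2 and below in 3, against 8.56% and 8.18%. No member had an unadjusted p under 0.05 without Model 59, QYD 66 or QYD 68, taken out singly. By library size alone 6 of 36 were positive.

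**Figure D4:**
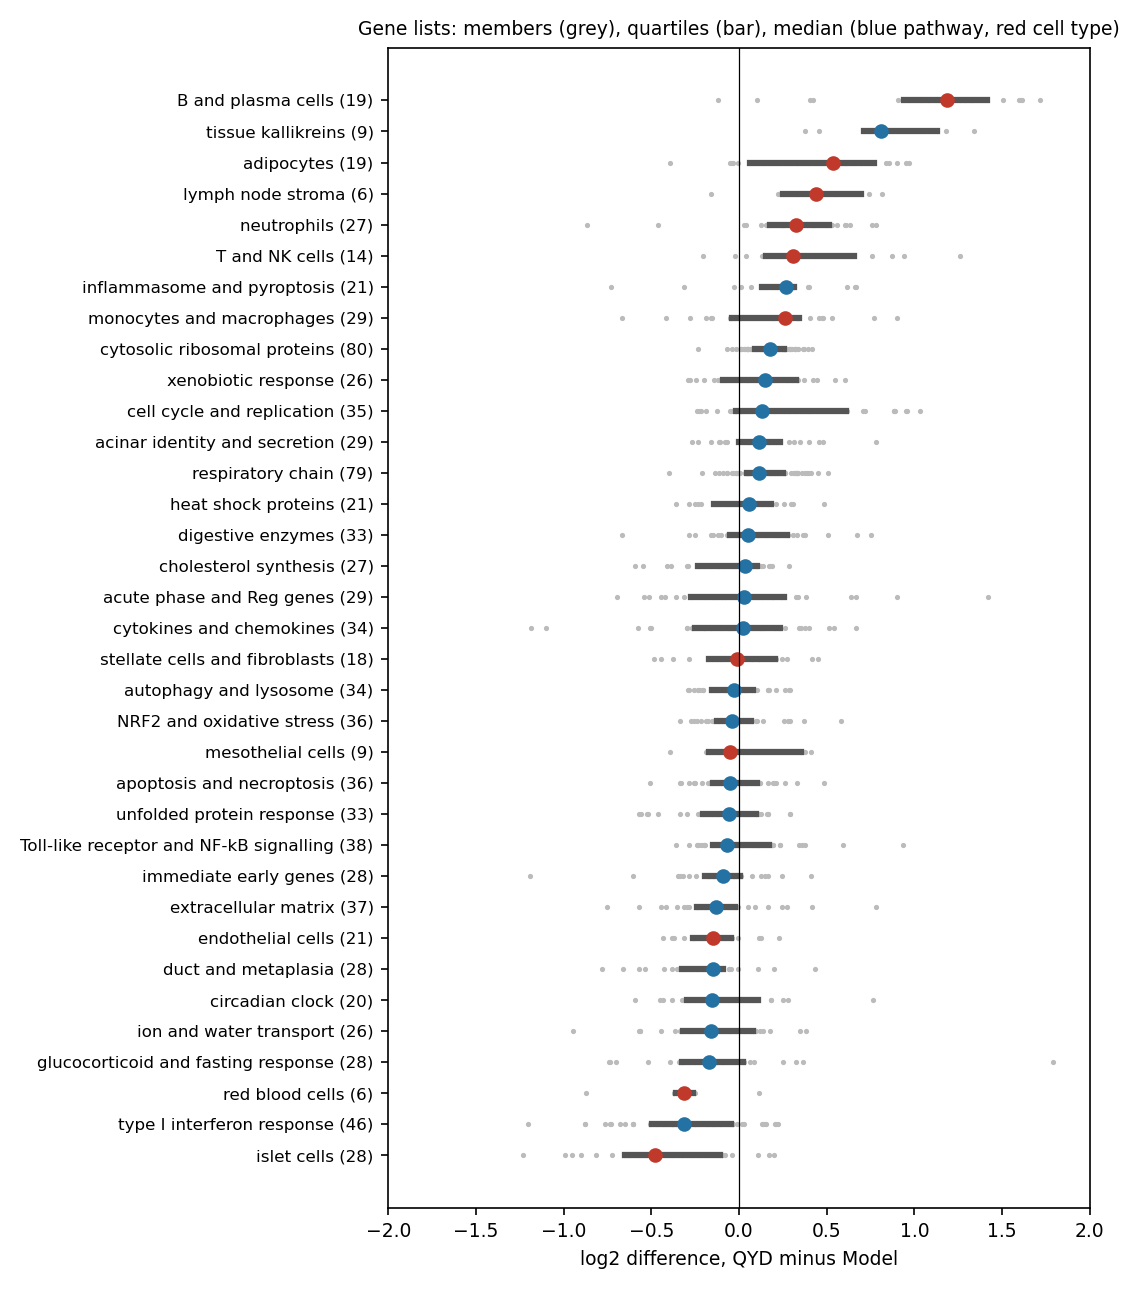
Log2 difference between QYD and Model of the tested members of each gene list with at least 5 (grey points), with their quartiles (bar) and median (blue for pathways, red for cell types); the number tested is in brackets. Medians run from -0.48 for islet cells to 1.19 for B and plasma cells.

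Genes of duct and acinar-to-duct metaplasia had negative values in 25 of 28 tested members, with a median of -0.15. Of these members 2 had an unadjusted p under 0.05, both lower, against 2.4% of all genes. Without Model 56 the split was 15 negative and 13 positive, with a median of -0.02. Without QYD 66, 17 were negative, and with the B cell marker level as a covariate 16 were, with a median of -0.07. Without QYD 68 the median was -0.35 and 6 had an unadjusted p under 0.05, all lower. The transcription factor Sox4 had 18.2, 13.8 and 20.2 CPM in Model and 9.47, 8.61 and 12.4 CPM in QYD, without overlap (-0.78 ± 0.23). Klf5 overlapped, at -0.66 ± 0.27. Sox9 and Krt19, the usual duct markers, had -0.15 ± 0.19 and -0.19 ± 0.33, and Krt19 was high in Model 56 and QYD 68 alike (179.7, 88.3 and 94 CPM and 81.1, 74.9 and 162 CPM). Calcium entry genes in the ion and water transport list included the store sensor Stim1, at 26.5, 32.1 and 31 CPM in Model and 24.7, 23.6 and 22.7 CPM in QYD (-0.33 ± 0.11). Its channel Orai1 had -0.44 ± 0.19, and both separated the groups. Trpv4, a cation channel, overlapped (-0.95 ± 0.40). The list as a whole had 16 of 26 members with negative values and a median of -0.16. In it 3 had an unadjusted p under 0.05, all lower, against 2.4% of all genes. Every QYD mouse was below every Model mouse in 3, against 8.18% of all genes. Without QYD 66 1 was lower, and without Model 57 1 was lower and 1 higher.

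The remaining lists gave few members with an unadjusted p under 0.05. Extracellular matrix genes were negative in 30 of 37, with a median of -0.13, and the collagen Col1a1 had -0.28 ± 0.27. Their direction turned without Model 57, with 23 of 37 positive and a median of 0.08. Without QYD 65 the median was -0.35 with 8 lower and 1 higher at an unadjusted p under 0.05, and without QYD 68 it was -0.01. Endothelial markers were negative in 18 of 21, with a median of -0.15, and Kdr had -0.37 ± 0.18. Their median was -0.31, with 4 lower at an unadjusted p under 0.05, without QYD 65, -0.26 without Model 56 and -0.08 without QYD 66. Medians were 0.13 for cell cycle and replication, 0.04 for cholesterol synthesis, -0.03 for autophagy and lysosome, -0.05 for apoptosis and necroptosis and 0.06 for heat shock proteins. Without Model 57 the cell cycle median was 0.60, with 11 members higher at an unadjusted p under 0.05, and without QYD 68 the cholesterol synthesis median was -0.26.

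Islet markers had lower values in QYD. Islets are the endocrine part of the pancreas and a small part of its mass. Of 28 tested markers, 25 were negative, 9 had an unadjusted p under 0.05, all lower, against 2.4% of all genes, and the median was -0.48. G6pc2, the glucose-6-phosphatase of beta cells, had 2.29, 1.34 and 1.21 CPM in Model and 0.614, 0.603 and 0.857 CPM in QYD, without overlap (-1.23 ± 0.32). The granule protein Chgb had 3.66, 3.87 and 2.38 CPM and 1.9, 2.11 and 1.08 CPM (-0.95 ± 0.32), also without overlap. Ins2, an insulin gene, had 173, 110.0 and 85.6 CPM in Model and 55.2, 89.2 and 111 CPM in QYD (-0.53 ± 0.30). Model 56 had the most and QYD 65 the least, with the other mice mixed between them. Glucagon (Gcg) had 48.4, 52 and 10.6 CPM and 19.8, 34.5 and 19.5 CPM (-0.59 ± 0.45), where Model 59 was the lowest of all. The 9 markers include genes of beta, delta and PP cells, among them Iapp (-0.72), Chga (-0.81), Pyy (-0.90) and Sst (-0.63). The count was 4 without Model 56, 3 without QYD 65 and 4 with the B cell marker level as a covariate. Summed, the markers were 252 to 471 CPM in Model and 204 to 290 CPM in QYD, and the number of islets in each piece of tissue was not measured.

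Markers of lymphocytes and fat separated mice inside each group. The main axis of variation among the 6 libraries took 41.0% of the variance and set Model 57, QYD 65 and QYD 66 (21.2 to 22.1) against Model 56, Model 59 and QYD 68 (-26.1 to -16.4). Of the 50 genes loading most on the positive side, 15 were B and plasma cell markers and 5 adipocyte markers. The B cell receptor gene Cd79a had 0.143, 2.89 and 0.069 CPM in Model and 3.16, 6.1 and 0.335 CPM in QYD (1.61 ± 1.02). The adipocyte protease Cfd (adipsin) had 4.32, 28.5 and 1.83 CPM and 41.5, 21.4 and 4.1 CPM (0.95 ± 0.99). Each group thus held both high and low mice, 1 high mouse in Model and 2 in QYD. The median of the B and plasma cell list was 1.19 with 18 of 19 positive, and without Model 57 it stood 3.92 above the median of all genes. Ly6d, the only member with an unadjusted p under 0.05, had 0.658, 1.28 and 1.35 CPM in Model and 1.72, 3.32 and 2.98 CPM in QYD (1.29 ± 0.55), and it is also made by epithelia.

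On the opposite side of that axis were the secreted phosphoprotein Spp1, the keratin Krt20 and the claudin Cldn4, genes of injured duct-like epithelium. The islet genes Pyy and Ppy and the cyclooxygenase Ptgs2 were also among the 50 genes loading most on that side. Spp1 stood at 432, 209 and 189.5 CPM in Model and 102, 135 and 336 CPM in QYD (-0.54 ± 0.44), highest in Model 56 and QYD 68. Among adipocyte markers, Fabp4, Cd36 and Thrsp did not fully follow that split. Fabp4 kept its order within each group, and Cd36 within Model, while QYD 68 was not the lowest QYD mouse for Cd36. Across groups the split did not hold for these 2 genes, as QYD 68 lay above every Model mouse. Fabp4, a fatty acid carrier, had 35.8, 50.3 and 30.5 CPM in Model and 63.6, 60.6 and 54 CPM in QYD (0.61 ± 0.22), and the fatty acid receptor Cd36 had 18.1, 23.3 and 12 CPM and 32.4, 24.2 and 27.6 CPM (0.66 ± 0.20). For both, every QYD mouse was above every Model mouse, which held for 4 of the 19 markers and for 8.56% of all genes. Endothelial cells make both as well.

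**Figure D5:**
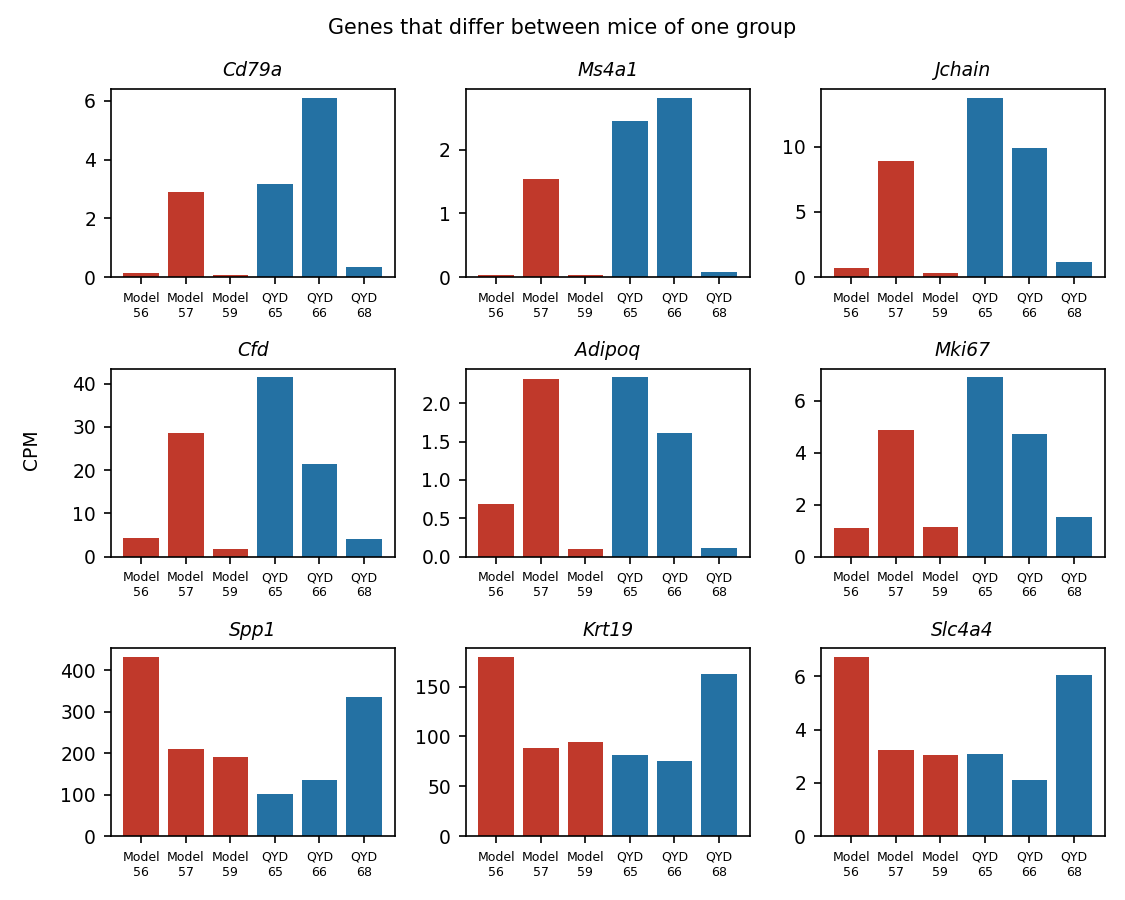
CPM of 9 genes in each of the 6 mice (bars from 0, red Model, blue QYD, each gene with its own scale). Cd79a, Ms4a1, Jchain, Cfd, Adipoq and Mki67 are high in Model 57, QYD 65 and QYD 66, and Krt19, Slc4a4 and Spp1 are high in Model 56 and QYD 68.

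Among genes with at least 5 CPM and groups that did not overlap, those with the smallest unadjusted p were spread over many functions, and none passed the adjusted test. Higher in QYD, beside Klk1b4, Klk1b11 and Amy1, were Serpini1, the protease inhibitor neuroserpin, at 8.47, 6.64 and 8.9 CPM in Model and 13, 11.7 and 16.5 CPM in QYD (0.78 ± 0.17), and C1galt1c1, the chaperone of an O-glycosylation enzyme (0.59 ± 0.13). The others were the thioesterase Acot13 (0.52 ± 0.12), the cytochrome P450 gene Cyp2j6 (0.43 ± 0.10), the ribosome assembly factor Utp14a (0.47 ± 0.11), the ubiquitin ligase Rnf170 (0.48 ± 0.12) and Abracl (0.53 ± 0.13). Cyp2j6 had 9.44, 10.2 and 9.76 CPM in Model and 13.4, 13.3 and 12.9 CPM in QYD.

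Lower in QYD, beside Xaf1, Sesn2 and Ddit4, was Ackr3, a scavenging receptor of the chemokine CXCL12, with 7.96, 8.22 and 7.8 CPM in Model and 5.96, 5.39 and 5.59 CPM in QYD (-0.50 ± 0.13). The proprotein convertase Furin had 127, 80.5 and 83.2 CPM and 49.2, 60.4 and 64.7 CPM (-0.74 ± 0.20), its Model mean raised by Model 56. The others were Pcolce, which enhances collagen processing (-0.56 ± 0.15), the ADP-ribosyltransferase Parp10 (-0.56 ± 0.15), the hydrolase Nudt22 (-0.48 ± 0.13), the protocadherin Pcdh1 (-0.50 ± 0.14) and the membrane protein Cdcp1 (-0.41 ± 0.12). Cd300lg, chosen after its values were seen, had 2, 1.96 and 1.41 CPM in Model and 4.3, 3.52 and 4.17 CPM in QYD (1.15 ± 0.24), and is a mucin-like protein of capillary endothelium.

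Hist2h2aa2, a histone H2A gene also chosen after its values were seen, was the only gene to pass an adjusted test under any setting. It had 12 counts in each of the 3 Model libraries and 0 in all QYD and Control libraries. Its near-identical copy Hist2h2aa1 had 485, 364 and 387 counts in Model and 297, 331 and 322 in QYD. Of the 50-base stretches of Hist2h2aa2, 0.0% occurred in no other gene, so its counts depend on how reads were divided between the copies, and no fold is given for it.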

How the data were processed

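Polyadenylated RNA of whole pancreas was sequenced from 9 mice, 3 in each of the Control, Model and QYD groups, which were taken from the sample labels. The tools listed in the submitters' processing notes are HISAT2 2.0.4, Bowtie2 2.2.5 and RSEM 1.2.12, and the genome is GRCm38.p6. Whether libraries keep strand is not stated there. The authors deposited estimated counts per gene and library, of which 93.5% were whole numbers. FPKM values, scaled by length and library total, and TPM values were also deposited per the file headers. The authors' group means were not used.

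The test, on rounded estimated counts, was that of edgeR 4.0.16 under R 4.3.3 (default expression filter, TMM scaling, quasi-likelihood fit of all 9 libraries by group, 6 residual degrees of freedom, Benjamini-Hochberg over 12828 genes, threshold 0.05). Levels are CPM on the TMM scale. A difference is log2(QYD) minus log2(Model), its SE is its size over the square root of F, and its 95% interval uses the fit's degrees of freedom. The common coefficient of variation between mice was 0.175, and SEs had a median of 0.186. The procedure was tested on simulated counts.

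The 37 gene lists and the members named were chosen with earlier results of these data known, so list counts and medians carry no test. Named genes were, by rule, the 10 smallest unadjusted p in each direction among genes with at least 5 CPM, non-overlapping groups and no predicted name, a fixed set per list, and the highest and lowest member of each list with at least 1 CPM. Further members of lists were named where their unadjusted p was under 0.05. Some genes this rule names are not reported here. Promoters came from RefSeq. Alternatives were RLE and library-size scaling, other filters, the 6 compared libraries alone, DESeq2 1.42.0, limma 3.58.1 on counts (voom) and on log2 FPKM, each library left out, and, chosen after seeing the data, a covariate of B cell marker level.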

Additional observations from a re-analysis of the deposited data

How the results depend on the processing

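No gene passed the adjusted test in any edgeR alternative or with DESeq2, while limma voom and limma on FPKM with each pseudocount and without a filter each called 1 gene, Hist2h2aa2 (smallest adjusted p 0.00546, 0.000806, 2.06e-07 and 4.92e-06). Leaving out each library gave 0 and 0 calls at the lowest and highest, with a smallest adjusted p of 0.321 to 0.985. The number with an unadjusted p under 0.05 was 750, and it was 1277 of 12759 genes with the 6 compared libraries, 1530 with voom, 369 on log2(FPKM + 0.1), 1243 on log2(FPKM + 1) without a filter and 353 without QYD 66. The difference of the enzyme share lay between -0.0147 and 3.39 percentage points when each mouse was left out. No paired analysis was possible because the mouse numbers are not shared between groups.

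List medians were set against the median of all genes. In most alternatives they moved from the value of the main fit by less than the spread between mice. The cause of larger moves was not tested. On log2(FPKM + 1) without a filter the medians were -0.127 for the unfolded protein response, 0.089 for inflammasome, 0.063 for xenobiotic response, -0.1 for autophagy and lysosome and -0.224 for islet cells. At 5 CPM or more they were 0.05 for xenobiotic response and 0.091 for lymph node stroma. For xenobiotic response and ion transport they were 0.064 and -0.058 on log2(FPKM + 1), and 0.048 and -0.071 on log2(FPKM + 0.1). Voom gave 2.214 for B and plasma cells. The B cell marker covariate gave -0.204 for cytokines, 0.036 for inflammasome, 0.019 for xenobiotic response, -0.067 for ion transport, 0.009 for B and plasma cells, -0.332 for T and NK cells, 0.087 for lymph node stroma, 0.004 for adipocytes and -0.412 for mesothelial cells.

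Leaving out each library gave ranges of -0.117 to 0.008 for the unfolded protein response, -0.079 to 0.027 for Toll-like receptor signalling, 0.096 to 0.376 for inflammasome and 0.01 to 0.161 for xenobiotic response. They were -0.318 to -0.156 for the glucocorticoid list, -0.025 to 0.522 for cell cycle, -0.264 to 0.069 for cholesterol synthesis, 0.621 to 1.177 for kallikreins and -0.164 to -0.037 for ion transport. For cell types they were 0.658 to 3.921 for B and plasma cells, -0.029 to 1.301 for T and NK cells, 0.199 to 0.765 for lymph node stroma, -0.646 to -0.222 for islet cells, 0.027 to 0.895 for adipocytes, -0.405 to 0.386 for mesothelial cells, -0.869 to -0.083 for red blood cells and -0.432 to 0.363 for intestinal epithelium. Of 199 named genes tested, 140 kept the sign of their difference in every alternative.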
